A study of Rattus norvegicus with 6 samples.

Results

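The genes described here encode O-GlcNAc transferase (Ogt), the kinases Clk1 and Clk4, the cyclins Ccnl1 and Ccnl2, and 5 further nuclear proteins that act on pre-mRNA processing (Akap8l, Luc7l, Luc7l2, Srek1 and Ppp1r10). They were followed in rat liver on 20 probe sets, all those annotated to exactly 1 of these 10 gene symbols, out of 31042 probe sets and 14217 genes on the array. The 10 genes were chosen by their log2 difference between the diets on these same arrays. Their values in that comparison are therefore a description, and no test of them is offered.

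Liver RNA came from male Wistar rats, 6 weeks old and about 150 g when bought, of no stated genotype or transgene. The 5P group, 3 arrays, ate a low-protein diet for 8 hours and was sampled after 16 hours without food. The 15P group, 3 arrays, ate a control diet of the same energy content over the same hours and was fasted in the same way. All rats had first had 4 days on pellets and 4 days of training to eat the control diet between 10:00 and 18:00. Nothing in the labels ties each array to its own animal, so the spread on which every p-value rests is that of 6 arrays and may be technical. The series title names fibroblast growth factor 21 under protein malnutrition as its subject.

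Nuclear speckles are bodies in the nucleus that hold splicing factors, among them the SR proteins, whose arginine-serine-rich tails are phosphorylated to release them to sites of transcription. CLK kinases are among the enzymes that do this, and transcripts of the Clk1, Clk4 and Ogt genes are known from mouse and human cells to exist also as forms with unspliced introns that stay in the nucleus. Ogt encodes the enzyme that places single N-acetylglucosamine sugars on proteins of the nucleus and cytoplasm, from UDP-GlcNAc that nutrient metabolism supplies.

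The promoter letters of these genes are shown first, as a description. Their common direction between the diets follows from how they were chosen, and a shared control was not tested. RefSeq windows on assembly GRCr8, running from 250 bases before to 50 bases after an annotated start, were held for 9 of the 10 genes (11 windows). Luc7l was not among them. The core of the cAMP response element, ACGTCA on either strand, was found in 4 of the 11 windows. They belong to Clk1, Clk4, Ccnl1 and Ccnl2, the kinases and cyclins of the set, and the other Clk4 window has no match. The core occurs in 7.94% of the 33469 windows in the RefSeq table. These 4 windows are printed 5′ to 3′ with the core in capitals, beside that of Akap8l, the gene with the largest diet difference, which has no match.
Clk1 promoter, chr9:67453131-67453430 (- strand): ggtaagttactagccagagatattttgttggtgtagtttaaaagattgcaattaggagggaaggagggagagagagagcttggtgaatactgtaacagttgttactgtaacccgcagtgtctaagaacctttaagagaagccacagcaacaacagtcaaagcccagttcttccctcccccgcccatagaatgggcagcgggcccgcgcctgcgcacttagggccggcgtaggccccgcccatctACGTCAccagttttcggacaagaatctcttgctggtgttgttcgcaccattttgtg
Clk4 promoter, chr10:36025490-36025789 (+ strand): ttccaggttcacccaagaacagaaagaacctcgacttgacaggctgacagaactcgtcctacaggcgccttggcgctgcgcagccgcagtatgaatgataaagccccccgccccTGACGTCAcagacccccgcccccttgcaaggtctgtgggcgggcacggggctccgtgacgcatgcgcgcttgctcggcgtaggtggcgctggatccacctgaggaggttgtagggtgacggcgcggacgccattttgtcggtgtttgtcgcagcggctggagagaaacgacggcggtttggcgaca
Ccnl1 promoter, chr2:152507419-152507718 (- strand): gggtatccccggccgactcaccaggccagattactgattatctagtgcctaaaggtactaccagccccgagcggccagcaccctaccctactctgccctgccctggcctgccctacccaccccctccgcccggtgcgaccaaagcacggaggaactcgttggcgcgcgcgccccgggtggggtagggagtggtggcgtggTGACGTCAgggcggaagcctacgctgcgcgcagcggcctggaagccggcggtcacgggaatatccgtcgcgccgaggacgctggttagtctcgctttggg
Ccnl2 promoter, chr5:171699525-171699824 (+ strand): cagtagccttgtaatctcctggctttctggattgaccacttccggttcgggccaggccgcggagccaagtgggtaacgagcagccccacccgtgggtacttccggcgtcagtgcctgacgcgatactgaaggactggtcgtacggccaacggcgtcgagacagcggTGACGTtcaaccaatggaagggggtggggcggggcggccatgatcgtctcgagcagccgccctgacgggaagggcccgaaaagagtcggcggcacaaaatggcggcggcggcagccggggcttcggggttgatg
Akap8l promoter, chr7:12012762-12013061 (- strand): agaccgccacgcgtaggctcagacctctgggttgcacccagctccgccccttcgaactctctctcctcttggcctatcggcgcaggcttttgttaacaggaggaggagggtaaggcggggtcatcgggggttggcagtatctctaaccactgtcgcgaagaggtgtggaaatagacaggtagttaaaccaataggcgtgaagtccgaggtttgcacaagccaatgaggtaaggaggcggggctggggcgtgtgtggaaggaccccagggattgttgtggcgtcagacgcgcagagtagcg
In Clk4 and Ccnl1 the cores overlap as the full palindrome TGACGTCA, which occurs in 1.83% of all windows, and it begins 136 and 50 bases before the start. The GC box GGGCGG, on either strand, was present for all 9 genes, in 10 of the 11 windows, against 33.1% of all windows. The member windows had a median GC content of 62.7%, against 51.7% over all windows. The CCAAT box was found for 5 genes, in 5 of the 11 windows (37.5% of all windows), and the ETS core CCGGAAG for Ccnl2 and Srek1, in 2 (8.75%). GCATGCGC, of the NRF1 type, was found for Ogt and Clk4, in 3 windows, of which those of Ogt overlap (2.47%). The YY1-type letters AANATGGC were found for Clk4 and Ccnl2, in 2 windows (6.96%). The letters TGATGNAAN of the C/EBP-ATF response element were in none of the 11 windows (3.97% of all). A match is a description of these letters and not a site of binding.

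The arrays themselves differed little in scale. Their median intensities ran from 33.7 to 34.2 on 5P arrays and from 33.3 to 33.6 on 15P arrays. On the first principal component, with 36.9% of the variance, 15P replicate 3 scored 10.11, against 22.45 and 26.91 for the other 15P arrays and -22.59 to -17.34 for the 5P arrays. The labelled tissue was borne out by 7 measured hepatocyte markers such as Alb and Ttr, whose summed intensity was 89686 to 90764 on 5P arrays and 90678 to 95255 on 15P arrays. The red blood cell markers Hbb, Alas2, Slc4a1 and Epb42 summed to 4030 to 4294 on 5P arrays, against 2845 to 3100 on 15P arrays, with 3 of 4 higher and no member at 0. Most of this sum was Hbb, at log2 11.94 to 12.03 on 5P arrays and 11.43 to 11.56 on 15P arrays. Alas2 was also higher without overlap, whereas Slc4a1 (0.14) and Epb42 (-0.06) overlapped. Of 47 measured marker genes of 9 cell types, none passed the test over all genes, which does not show that their levels were equal. Of 5 cholangiocyte markers 3 were lower in 5P and 2 higher. Epcam had -0.55 (SE 0.237) and Krt19 -0.39 (SE 0.133). Of 6 Kupffer cell and macrophage markers 5 were higher and 1 lower, and Cd68 had 0.43 (SE 0.198). Epcam, Krt19 and Cd68 overlapped between the diets. Of 7 hepatocyte markers 4 were lower and 3 higher. Among them Cps1 had -0.23 without overlap, and -0.70 on its other probe set. The control probe sets for the 3′ and 5′ ends of Gapdh differed by 0.38 to 0.52 (log2) on 5P arrays and by 0.27 to 0.37 on 15P arrays. For hexokinase the same difference was 1.35 to 1.48 on 5P arrays and 1.06 to 1.30 on 15P arrays, and for beta-actin it overlapped (1.41 to 1.60 on 5P and 1.37 to 1.61 on 15P arrays). Between the 3′ end and the middle of Gapdh the difference went the other way, 0.16 to 0.27 on 5P arrays and 0.28 to 0.39 on 15P arrays. For beta-actin the 3′ to middle difference overlapped (0.69 to 0.88 on 5P and 0.72 to 0.84 on 15P arrays). The part of cell type content, red blood cells included, and of these end differences in the results below was not tested. In bulk liver, fewer cells of a type and less RNA per cell cannot be told apart.

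Probe sets of these genes read lower in 5P than in 15P livers with few exceptions. Of the 20, 19 had a negative log2 fold change (5P minus 15P), as had 41.9% of all probe sets, and for 16 the 3 5P arrays all lay below the 3 15P arrays, as for 9.12% of all probe sets. In a linear model over all probe sets (limma, adjusted p under 0.05), 5 of the 20 were called lower and none higher, where 0.0966% of all probe sets were called lower, 0.0354% higher and 0.132% either way. These counts follow from the choice of the genes. The fold changes ran from -1.03 to 0.09 with a median of -0.55, against 0.03 over all probe sets. Without 15P replicate 3 the median was -0.59 and 18 probe sets were lower without overlap, where the share of all probe sets that were so had also gone up, to 14.6%.

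**Figure D1:**
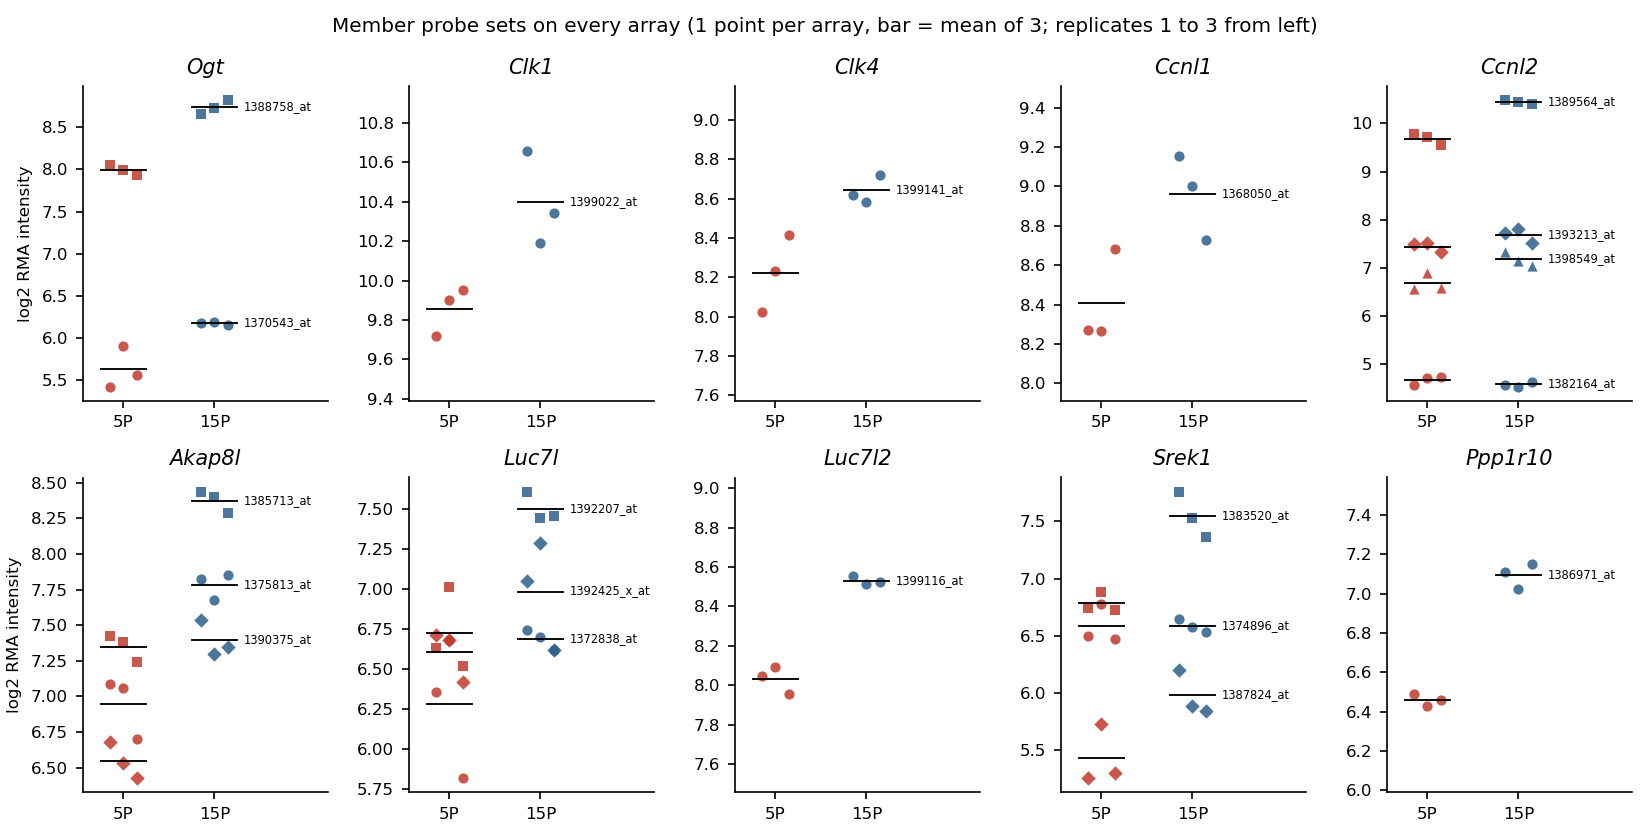
Log2 RMA intensity (y axis) of each probe set of the 10 genes on the 5P arrays (red) and the 15P arrays (blue), 1 point per array and a bar at the mean of 3. The marker shape separates the probe sets of a gene, whose levels cannot be set against each other. For 16 of the 20 probe sets all 5P points lie below all 15P points.

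Ogt (gene ID 26295) was read by 2 probe sets. Probe set 1388758_at gave log2 intensities of 8.06, 8.00 and 7.93 on the 5P arrays, against 8.66, 8.73 and 8.82 on the 15P arrays. The groups were separated by 0.61, more than the range within either diet (0.12 in 5P and 0.16 in 15P). The difference was -0.74 on the log2 scale (SE 0.088), 1.67-fold lower in 5P livers. Probe set 1370543_at gave 5.43, 5.91 and 5.56 on the 5P arrays, against 6.18, 6.19 and 6.16 on the 15P arrays, with a log2 fold change of -0.55 (SE 0.127). Both probe sets were thus lower on every 5P array, and on 1370543_at 5P replicate 2 lay closest to the 15P level.

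Clk1 (gene ID 301434) and Clk4 (gene ID 287269), dual-specificity kinases that phosphorylate SR proteins, had 1 probe set each. Clk1 read 9.72, 9.90 and 9.95 (log2) on the 5P arrays, against 10.66, 10.19 and 10.35 on the 15P arrays. The fold change was -0.54 (SE 0.132), or 1.45-fold lower in 5P livers, and 15P replicate 1 was the highest array. Without that array it was -0.41. Clk4 read 8.02, 8.23 and 8.42 on the 5P arrays, against 8.62, 8.58 and 8.72 on the 15P arrays. Its fold change of -0.42 (SE 0.114) was the smallest among the genes with a single probe set, and the groups lay 0.17 apart.

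Ccnl1 (gene ID 114121) and Ccnl2 (gene ID 298686) encode L-type cyclins, which partner CDK11 kinases and carry an arginine-serine-rich region. Ccnl1 read 8.27, 8.26 and 8.68 on the 5P arrays, against 9.16, 9.0 and 8.73 on the 15P arrays. The 5P replicate 3 and 15P replicate 3 arrays lay only 0.05 apart, and the fold change was -0.56 (SE 0.151), or -0.67 without 15P replicate 3. Ccnl2 was read by 4 probe sets that disagreed. The probe set of highest mean, 1389564_at, gave 9.79, 9.72 and 9.55 on the 5P arrays, against 10.48, 10.44 and 10.39 on the 15P arrays, a fold change of -0.75 (SE 0.0942). Probe sets 1398549_at and 1393213_at had -0.50 (SE 0.123) and -0.24 (SE 0.106), and the groups of the second were only 0.01 apart. Probe set 1382164_at read 4.57, 4.71 and 4.73 on the 5P arrays, against 4.58, 4.54 and 4.63 on the 15P arrays, so that the diets overlapped, with 0.09 (SE 0.0876). The files give no detection call, and it is unknown whether this probe set was above background.

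Akap8l (gene ID 299569), a nuclear protein related to the A-kinase anchoring protein AKAP8, had the lowest fold changes of the set. Probe set 1385713_at read 7.42, 7.38 and 7.24 on the 5P arrays, against 8.44, 8.40 and 8.28 on the 15P arrays. The groups were 0.86 apart, and the range within a diet was 0.18 in 5P and 0.15 in 15P. At -1.03 on the log2 scale (SE 0.093), 2.04-fold lower in 5P livers, it ranked 77 from the lowest among 31042 probe sets. The other Akap8l probe sets, 1390375_at and 1375813_at, had -0.85 (SE 0.106) and -0.84 (SE 0.122). All 3 were non-overlapping and differed among themselves by at most 0.19.

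**Figure D2:**
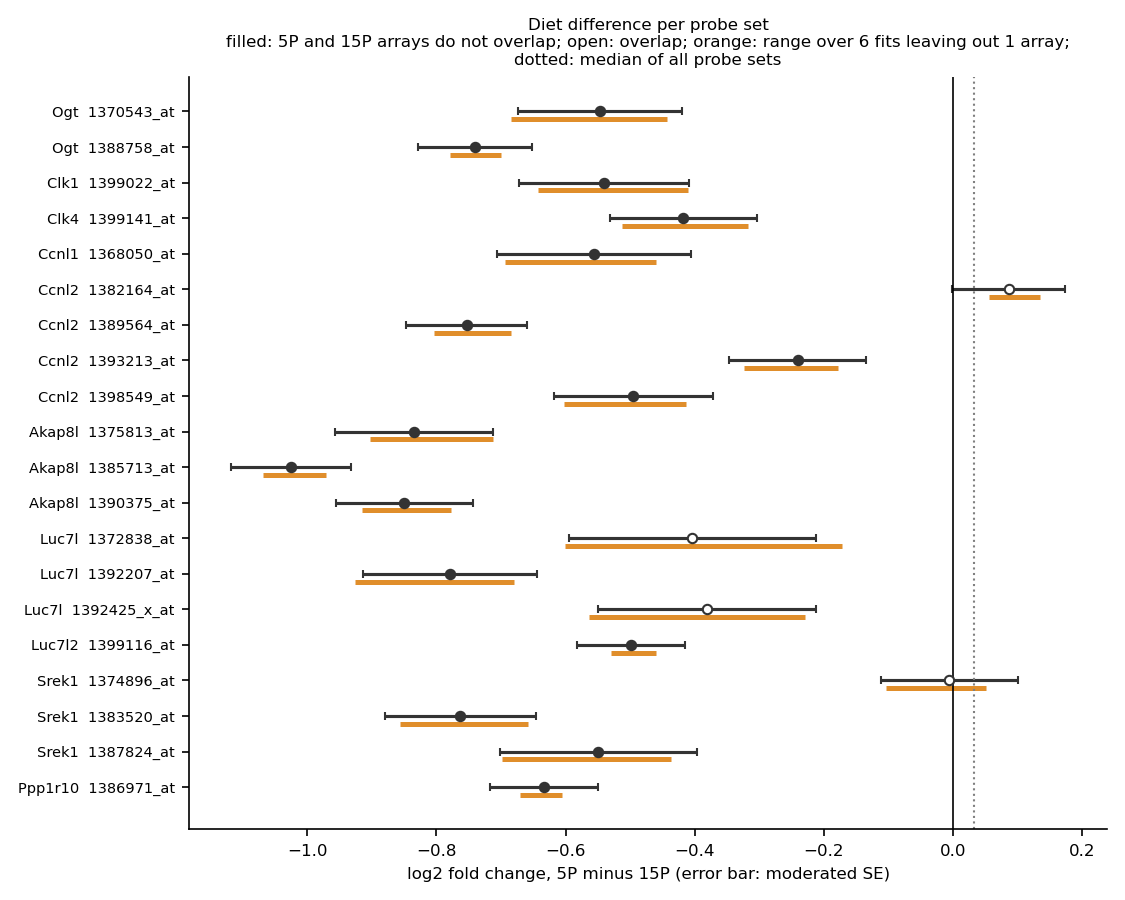
Log2 fold change, 5P minus 15P, of each of the 20 probe sets (x axis) with its moderated SE (error bar). Orange bars give the range over the 6 fits that left out 1 array, and open points mark the 4 probe sets whose diets overlapped. The values run from -1.03 (Akap8l, 1385713_at) to 0.09 (Ccnl2, 1382164_at).

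Luc7l (gene ID 360503) and Luc7l2 (gene ID 312251) encode mammalian relatives of yeast Luc7, a protein of the U1 snRNP that takes part in the choice of donor splice sites. Luc7l2 read 8.05, 8.09 and 7.96 on the 5P arrays, against 8.55, 8.52 and 8.52 on the 15P arrays. The 15P SD was 0.02 and the 5P SD 0.07, and the fold change was -0.50 (SE 0.0837). Luc7l was less even over its 3 probe sets. Probe set 1392207_at read 6.63, 7.01 and 6.52 on the 5P arrays, against 7.61, 7.44 and 7.46 on the 15P arrays, with -0.78 (SE 0.135). Probe set 1372838_at had 6.35, 6.68 and 5.82 on the 5P arrays, against 6.74, 6.70 and 6.62 on the 15P arrays. There 5P replicate 2 overlapped the 15P arrays, and the fold change of -0.40 (SE 0.192) was -0.17 without 5P replicate 3 and -0.60 without 5P replicate 2. Probe set 1392425_x_at, whose suffix marks probes that may match other transcripts, also overlapped (-0.38, SE 0.169; -0.56 without 15P replicate 3 and -0.23 without 15P replicate 2).

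Srek1 (gene ID 56763), a splicing regulator with an arginine-serine-rich region that modulates SR proteins, showed the clearest disagreement besides Ccnl2. Probe set 1383520_at read 6.75, 6.89 and 6.72 on the 5P arrays, against 7.76, 7.53 and 7.36 on the 15P arrays, a fold change of -0.76 (SE 0.117). Probe set 1387824_at had -0.55 (SE 0.152) without overlap. Probe set 1374896_at read 6.50, 6.78 and 6.47 on the 5P arrays, against 6.65, 6.58 and 6.54 on the 15P arrays, which overlapped, with -0.01 (SE 0.106). The 3 probe sets spanned 0.76 in fold change, as against 0.84 over the 4 of Ccnl2 and 0.40 over the 3 of Luc7l. Where in the transcripts these probe sets lie was not analysed here.

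Ppp1r10 (gene ID 65045), which encodes PNUTS, a nuclear targeting subunit of protein phosphatase PP1, was the most uniform gene within the 5P diet. It read 6.49, 6.43 and 6.46 on the 5P arrays, against 7.11, 7.02 and 7.15 on the 15P arrays. The 5P range was 0.06 and the groups lay 0.53 apart, with a fold change of -0.63 (SE 0.0836), or 1.55-fold lower in 5P livers. Over the 6 fits that left out 1 array it ran from -0.67 to -0.61.

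The number of calls changed when 1 array was left out. Differences of single probe sets moved too, as for 1372838_at of Luc7l (-0.60 to -0.17). Each such fit had fewer arrays to test on, and the part of that in the calls was not tested. The 5 probe sets called were 1388758_at of Ogt, 1389564_at of Ccnl2, 1385713_at and 1390375_at of Akap8l, and 1386971_at of Ppp1r10. The median over the 20 probe sets stayed between -0.61 and -0.47 when any 1 array was left out. The number called was 5 without 15P replicate 3, 1 without 15P replicate 1 or without any 1 of the 5P arrays, and 0 without 15P replicate 2. With all arrays, 0.132% of all probe sets were called in either direction. That share was 0.0515% to 0.0709% in the 5 fits with fewer member calls. It rose to 0.351% without 15P replicate 3, while the member count stayed at 5. Without 15P replicate 3, 1383520_at of Srek1 was called and Ppp1r10 was not. Probe set 1385713_at of Akap8l was called in 5 of these 6 fits.

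The genes did not keep 1 order within a diet. On the probe set of highest mean, Clk1, Clk4 and Ccnl1 were highest on 5P replicate 3 among the 5P arrays, at 9.95, 8.42 and 8.68. On that same array Ogt, Ccnl2, Akap8l, Luc7l, Luc7l2 and Srek1 were at their lowest, with Ppp1r10 between its other 5P values. Over all 20 probe sets, 12 were lowest on 5P replicate 3 and 4 were highest there, while 9 were highest on 5P replicate 2. Among the 15P arrays, 12 of the 20 were highest on replicate 1 and 11 were lowest on replicate 3. This division was noticed in the values and was not tested.

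**Figure D3:**
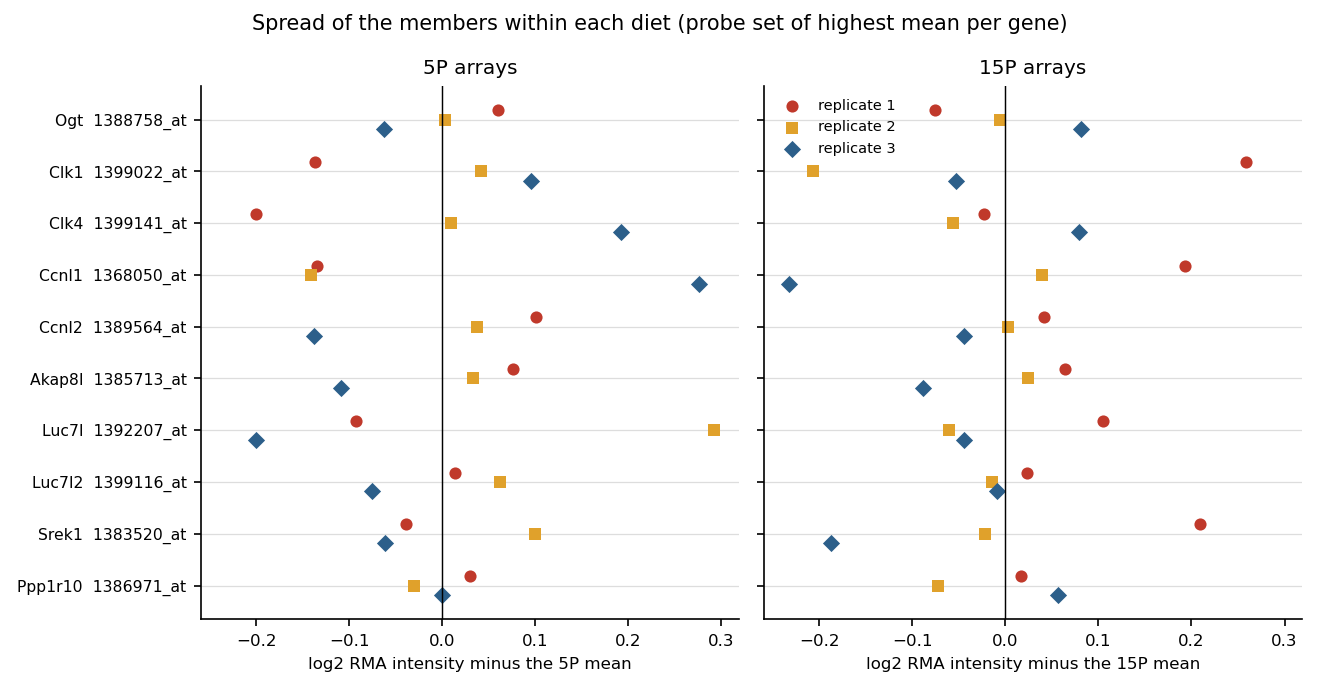
Log2 RMA intensity of each gene's probe set of highest mean, as the difference from its own mean over the 5P arrays (left) or the 15P arrays (right), 1 marker per array. On 5P replicate 3 (blue diamonds, left) Ccnl1, Clk4 and Clk1 stand above their 5P means and 6 other genes below theirs.

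Genes related to these in function were taken from 9 lists, with each gene at its probe set of highest mean. These lists, like the genes above, were chosen with earlier results of these data known. Their counts are therefore a description and no independent support. Of 82 measured genes none passed over all genes (limma, adjusted p under 0.05), where 0.183% of all genes did (0.12% lower and 0.0633% higher in 5P livers). In sign, 61 of the 82 were lower, against 42.4% of all genes. At an unadjusted p under 0.05, 19 were lower in 5P livers and 1 was higher, against 7.98% and 8.34% of all genes. The median log2 fold change of the 82 was -0.13, against 0.03 over all genes. In 22 of them all 5P arrays lay below the 15P arrays (10.1% of all genes), and in 3 above (12.8% of all genes). The red blood cell sums, carried mostly by Hbb, and the 3′ to 5′ differences of Gapdh and hexokinase given above moved with the diet here too. The 3′ to middle difference of Gapdh moved the other way.

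Of 12 measured kinases related to Clk1 and Clk4 none passed, and 9 were lower, with a median of -0.18. Clk2 read 7.11, 7.44 and 7.33 on the 5P arrays, against 7.83, 7.56 and 7.27 on the 15P arrays (log2 fold change -0.26, SE 0.154, limma adjusted p = 0.436), and its fold change ran from -0.40 without 15P replicate 3 to -0.12 without 15P replicate 1. Clk3 had -0.18 (SE 0.0863, adjusted p = 0.355). Prpf4b, a kinase of the spliceosome, had -0.54 (SE 0.177), or -0.32 without 5P replicate 3, and its other probe sets had -0.19, -0.38 and -0.81. Dyrk2 had -0.32 (SE 0.147), or -0.21 without 15P replicate 2, with -0.17, -0.61 and -0.29 on its other probe sets. Dyrk1a had -0.28 (SE 0.105).

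The removal of O-GlcNAc and the supply of UDP-GlcNAc showed no member past the test among 10 measured, with a median of -0.07. Oga, the enzyme that takes the sugar off again, read 7.34, 7.77 and 7.34 on the 5P arrays, against 7.64, 7.57 and 7.48 on the 15P arrays. The diets overlapped, with a log2 fold change of -0.08 (SE 0.131; 0.0075 with its probe sets averaged, and -0.22 to -0.0061 over the fits that left out 1 array). Nagk, which salvages N-acetylglucosamine, had 0.16 (SE 0.0762), and Gfpt2, of the entry step of the pathway, had 0.30 (SE 0.1), with log2 values of 3.81, 3.86 and 3.89 on the 5P arrays, against 3.72, 3.42 and 3.51 on the 15P arrays. The Gfpt2 probe set was dim, and whether it was above background is unknown. Gfpt1 and Uap1 of the same list were not among the measured genes. Gnpda2, which acts on glucosamine phosphate, had -0.16 (SE 0.107), or -0.09 without 15P replicate 1 and -0.25 without 15P replicate 3.

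Among 13 measured transcription cyclins and their kinases none passed, and the median was -0.05. Cdk11b, a partner of the L-type cyclins, read 7.88, 7.97 and 7.94 on the 5P arrays, against 8.10, 8.00 and 7.84 on the 15P arrays (-0.05, SE 0.0942, limma adjusted p = 0.84; 0.0088 without 15P replicate 1 and -0.12 without 15P replicate 3), and its other probe sets had -0.14 and -0.56. Ccnt2, a cyclin of the elongation kinase CDK9, had -0.46 (SE 0.128), with -0.34, -0.34 and -0.10 on its other probe sets. The inhibitor of that kinase, Hexim1, had -0.22 (SE 0.134; -0.10 without 15P replicate 1 and -0.36 without 15P replicate 3). Larp7, of the same inhibitory complex, had 0.17 (SE 0.0896), or 0.11 without 5P replicate 2, and 0.24 on its other probe set.

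The speckle and junction complex list held Srrm2, which at its probe set of highest mean had the lowest fold change of the 82 genes read in that way. Of 16 measured 13 were lower, 10 without overlap, with a median of -0.30, and none passed. Srrm2, a large scaffold protein of speckles, read 9.83, 9.93 and 9.20 on the 5P arrays, against 10.49, 10.44 and 10.43 on the 15P arrays (-0.80, SE 0.179, limma adjusted p = 0.112), and its other probe set had -0.83. Rsrp1, an arginine-serine-rich protein, had -0.77 (SE 0.169, limma adjusted p = 0.103) and -0.93 (SE 0.312) on its other probe set. The first read 10.63, 10.62 and 10.80 on the 5P arrays, against 11.84, 11.36 and 11.15 on the 15P arrays. The other read 7.44, 7.58 and 7.83 on the 5P arrays, against 9.31, 7.85 and 8.48 on the 15P arrays. Both were highest on 15P replicate 1. Bclaf1 had -0.49 (SE 0.096, limma adjusted p = 0.0868). Pnn, a protein of the exon junction and of cell contacts, had -0.50 (SE 0.155) at its probe set of highest mean. Its other probe sets had -0.24, -1.46 (SE 0.306) and -0.14. The one with -1.46 read 6.27, 6.31 and 5.03 on the 5P arrays, against 7.30, 7.21 and 7.49 on the 15P arrays. There 5P replicate 3 lay well below the other 5P arrays.

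In the U1 snRNP and LUC7 list all 7 measured genes were lower, with a median of -0.32, and none passed. Luc7l3, the remaining LUC7 paralog, had -0.38 (SE 0.143), with 5P and 15P arrays that overlapped, and -0.20 and -0.32 on its other probe sets. Prpf39 had -0.47 (SE 0.13) and Snrnp70, the U1 70K protein, had -0.32 (SE 0.13). Of 12 SR and TRA2 genes none passed and 9 were lower. Srsf11 had -0.59 (SE 0.0947, limma adjusted p = 0.0623; -0.31 on its other probe set) and Srsf2 -0.28 (SE 0.0868; -0.24 on its other probe set). Srsf1 had -0.22 (SE 0.132; -0.10 without 5P replicate 3 and -0.35 without 5P replicate 2), and -0.05 on its other probe set. Srsf3 had -0.44 (SE 0.12) on its only probe set, which was dim. It read 2.79, 2.97 and 2.61 on the 5P arrays, against 3.34, 3.07 and 3.26 on the 15P arrays. Whether it was above background is unknown.

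**Figure D4:**
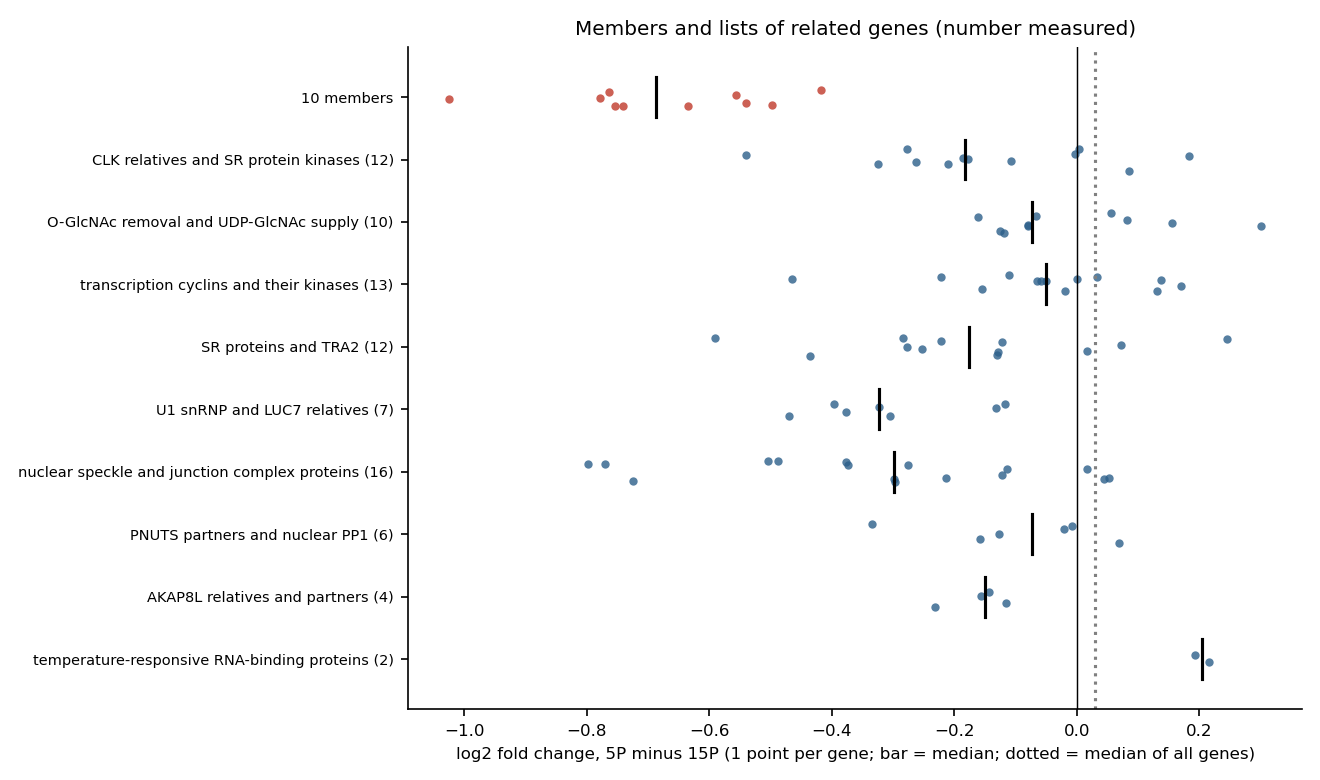
Log2 fold change, 5P minus 15P (x axis), of the 10 genes (red, probe set of highest mean) and of the measured genes of 9 related lists (blue), 1 point per gene with a bar at the median. The 10 genes have a median of -0.69, chosen with these values known, and the lists have medians from -0.32 to 0.20.

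Median fold changes were -0.07 for genes of PNUTS complexes and nuclear PP1, and -0.15 for the list of Akap8, Dhx9, Prkar2a and Prkar2b. Of 6 genes of PNUTS complexes and nuclear PP1 none passed. Wdr82, which binds PNUTS, had -0.33 (SE 0.112), and the PP1 catalytic subunit genes Ppp1cb and Ppp1cc had -0.16 (SE 0.115) and -0.13 (SE 0.088), and Ppp1cb had -0.07 without 15P replicate 2 and -0.09 without 5P replicate 3. Akap8, the paralog of Akap8l, read 7.30, 7.51 and 7.49 on the 5P arrays, against 7.65, 7.54 and 7.46 on the 15P arrays (-0.12, SE 0.0974, limma adjusted p = 0.597), and had -0.05 without 5P replicate 1 and -0.07 without 15P replicate 1. In the same list of 4, Dhx9 had -0.16 (SE 0.117; -0.06 without 5P replicate 3 and -0.08 without 15P replicate 2) and Prkar2b -0.23 (SE 0.125; -0.15 without 15P replicate 2), and none passed. The cold-responsive genes Cirbp and Rbm3 had 0.19 (SE 0.119) and 0.22 (SE 0.191), and neither passed. On its other probe sets Cirbp had 0.02 and 0.47. Without 15P replicate 3 Cirbp had 0.13, and Rbm3 ran from 0.05 without 5P replicate 2 to 0.36 without 5P replicate 3.

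Across the 6 arrays, the genes outside these lists with the pattern most like the mean of the 20 standardised probe sets were Sirt7, Spice1, Aasdh, Arid1a, Smu1 and Wtap, of 7010 genes compared. Their Pearson r ran from 0.985 to 0.995 over 6 arrays, a description in which the diet difference common to all weighs most, and 94 genes had an r over 0.95. Sirt7 had a log2 fold change of -0.29 (SE 0.0795), Spice1 -0.32 (SE 0.0835) and Wtap -0.29 (SE 0.0886). None of the 6 passed over all genes, and in each the 5P arrays lay below the 15P arrays.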

How the data were processed

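Liver RNA was column-purified, biotin-labelled with a 3′ IVT kit and measured on 6 Affymetrix arrays, per the labels' protocols. For each array the authors deposited an intensity per probe set, made with RMA per the submitters' processing notes, whose software version is not given in the sources. RMA normalizes between arrays, so a change common to most genes would not be visible. Their range, 3.61 to 21668, is that of linear values, so log2 was taken. Of 31099 probe sets, 57 controls were left out. Names came from the platform annotation, which can be old: 20826 probe sets had 1 symbol, 436 several and 9780 none. Gene IDs of 20758 matched RefSeq GRCr8, and 0 symbols changed.

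The diets were compared with limma 3.58.1 in R 4.3.3 (lmFit, eBayes, two-sided, Benjamini-Hochberg, threshold 0.05) over all probe sets, and over 14217 genes at their probe set of highest mean. Values are log2, fold changes are 5P minus 15P, and SE is moderated. The number of arrays limits the precision. The fit was tested on simulated data.

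The genes and lists were chosen with earlier results of these data known. Named related genes are 7 fixed paralogs and partners, the 3 of smallest p per list and 6 most alike genes; Pnn was added after its values were seen. Of 92 listed genes 82 were measured. Alternatives were prior variances, scalings, intensity filters, array weights, a replicate block, left-out arrays and averaged probe sets. Promoter windows were searched in Python 3.11.15 and figures drawn with matplotlib 3.10.9.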

Additional observations from a re-analysis of the deposited data

How the results depend on the processing

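The 20 member probe sets kept a median log2 fold change between -0.61 and -0.47 over all settings, and 15 to 18 of them did not overlap under 3 scalings, 2 intensity filters and 6 left-out arrays, an alternative chosen after seeing the data; the share of all probe sets that were lower without overlap ran from 6.35% to 14.7% over the same settings. The number of member probe sets called was 5 as reported, 7 with a robust prior variance, with median centring and with array weights (1375813_at of Akap8l and 1383520_at of Srek1 were added), 4 with an intensity-dependent prior variance and with centring on the 75th percentile, 1 with quantile normalization, 0 with the replicate block and 0 to 5 over the left-out arrays. Over all probe sets, 41 calls became 103 with a robust prior variance, 78 with median centring, 102 with array weights, 6 with the replicate block and 16 to 109 over the left-out arrays (109 without 15P replicate 3). The called share of all probe sets, 0.132% as reported, was 0.119% with an intensity-dependent prior variance. It was 0.19% with centring on the 75th percentile and 0.0966% with quantile normalization, so member calls did not simply follow the overall share. Of the calls, 26.8% were higher in 5P livers without rescaling, 16.7% after centring on the median and 40.7% after centring on the 75th percentile. No scaling moved the median of all probe sets by more than 0.05 from 0.03. After quantile normalization, and after centring on the 75th percentile, 18 of 20 member probe sets were lower. No gene of the related lists was called under any alternative. The sign turned for Cdk11b without 15P replicate 1 (range -0.12 to 0.0088 over left-out arrays), for Oga with averaged probe sets (0.0075) and for the uncalled 1374896_at of Srek1 in some settings. The cause of these shifts was not tested. The replicate numbers are not known to pair the samples. Deviations of same-numbered arrays correlated at -0.09, -0.03 and -0.10, which cannot settle this with 3 arrays a diet. The block result is given here only. The filter at the median intensity kept 19 of the 20 member probe sets, all but 1382164_at of Ccnl2. With 3 arrays a diet and no detection calls, the signal over background of the dimmer probe sets is unknown.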
